A study of Mus musculus with 15 samples.

Results

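Vitamin A acts through a chain of proteins, and 9 genes of that chain are described here in mouse endometrial epithelial organoids: the serum carrier *Rbp4*, the uptake receptor *Stra6*, the intracellular binding proteins *Crabp2* and *Fabp5*, and the nuclear receptors *Rara*, *Rarb*, *Rarg*, *Rxra* and *Rxrb*. They were picked by gene symbol from the 16729 genes of the table, and all 9 were found. In every comparison 8 of them passed a minimum mean of 10 normalized counts, and *Rarb* did not.

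Retinol travels in blood bound to RBP4 and enters cells through STRA6. Inside the cell it is stored as an ester or oxidized to retinoic acid, which CRABP2 and FABP5 carry. CRABP2 is known to pass retinoic acid to the retinoic acid receptors (RARs), whereas FABP5 also binds long-chain fatty acids and can deliver ligands to PPARδ. The RARs bind DNA as partners of the retinoid X receptors (RXRs), which also pair with the vitamin D receptor, the PPARs and other nuclear receptors. In the uterus retinoic acid is known for its part in the differentiation of the endometrium.

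The organoids were grown from the endometrial epithelium of female mice and measured by RNA-seq in 4 groups. All mice carried floxed *Smad2* and *Smad3* alleles (Smad2flox/flox; Smad3flox/flox). Control organoids received DMSO (control + vehicle, n = 3) or A83-01, a blocker of the TGFβ family receptors ALK4, ALK5 and ALK7 (control + A83-01, n = 4). Organoids from mice that also carried Ltfcre/+, a Cre recombinase driven by the estrogen-induced lactoferrin gene in uterine epithelium, received either DMSO (*Smad2/3* cKO, n = 4) or the blocker (*Smad2/3* cKO + A83-01, n = 4). The study's methods give a culture supplement without vitamin A for these organoids. The age of the mice was not given in the labels, which do not say which samples share a mouse. In the study's methods the sequenced organoids came from 3 or 4 mice per condition, with *Smad2/3* cKO + A83-01 not among the conditions listed.

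Estimated depth was 18.5 to 23.4 M reads per sample, except for *Smad2/3* cKO + A83-01 replicate 3 with 43.1 M. It was inferred from the spacing of low values and is rough, since only 10.8% to 22.3% of them per sample fell on that spacing. The 43.1 M rests on a spacing of 0.538, against 0.8945 to 1.2905 in the other samples. The targeted genes check the labels only weakly. *Smad2* was at 1045 to 1335 normalized counts in control + vehicle and at 821 to 924 in *Smad2/3* cKO (log2 fold change −0.41, SE 0.14, adjusted p = 0.0656, limma), and *Smad3* was at 1532 to 1741 and 1170 to 1977 (−0.07, SE 0.18, adjusted p = 0.827), so neither passed the thresholds; reads over a whole gene do not show whether the deleted exons are missing. All 9 epithelial markers were present, summing to 162372 to 201720 normalized counts per sample in control + vehicle and 93645 to 172045 elsewhere, and of these *Krt8*, *Krt19* and *Wnt7a* passed as lower and *Pax8* as higher in *Smad2/3* cKO + A83-01, in the test explained below. By contrast, the 8 stromal markers found summed to 37.0 to 203 in control + vehicle and 4.79 to 136 elsewhere, the 3 smooth muscle markers to 73.9 to 207 and 28.5 to 86.5, and the 2 endothelial ones to at most 27.6 in any sample. *Smad2/3* cKO replicate 2 stood apart by macrophage transcripts, with *Lyz2* at 3372 and *Adgre1* at 351 normalized counts against at most 86.9 and 9.01 elsewhere. The leukocyte marker sum was 1315 to 2938 in control + vehicle and 2117 to 8762 in the other 3 groups, with *Cd68* at 1180 to 8115 over all samples. The part of these marker differences in the results was not tested. Values without *Smad2/3* cKO replicate 2 are therefore given beside those of *Rbp4*, *Stra6*, *Fabp5*, *Rarg* and the RAR shares, and of the enzymes, lipid carriers and receptors named below as passing in *Smad2/3* cKO, *Dhrs3* was the one that did not pass without it.

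Differences are log2 fold changes of the normalized count plus 1, fitted with limma over all genes of a comparison. A gene passed when its Benjamini-Hochberg adjusted p was below 0.01 and its fold change above 1.4 in either direction. The comparisons of control + A83-01, *Smad2/3* cKO and *Smad2/3* cKO + A83-01 with control + vehicle all use the same 3 control samples and are not independent of each other.

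Among the 9 genes, *Rbp4* and *Fabp5* had their lowest values in control + vehicle, *Stra6* and *Rarb* their highest, *Rarg* its highest mean, and *Crabp2*, *Rara*, *Rxra* and *Rxrb* overlapped control + vehicle in every other group. Relative to control + vehicle, *Fabp5* rose in *Smad2/3* cKO organoids, and *Rbp4* and *Fabp5* rose and *Stra6* fell in *Smad2/3* cKO + A83-01 organoids. No gene of the 9 passed in control + A83-01. In bulk samples, fewer cells of a type and less RNA per cell cannot be told apart.

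**Figure D1:**
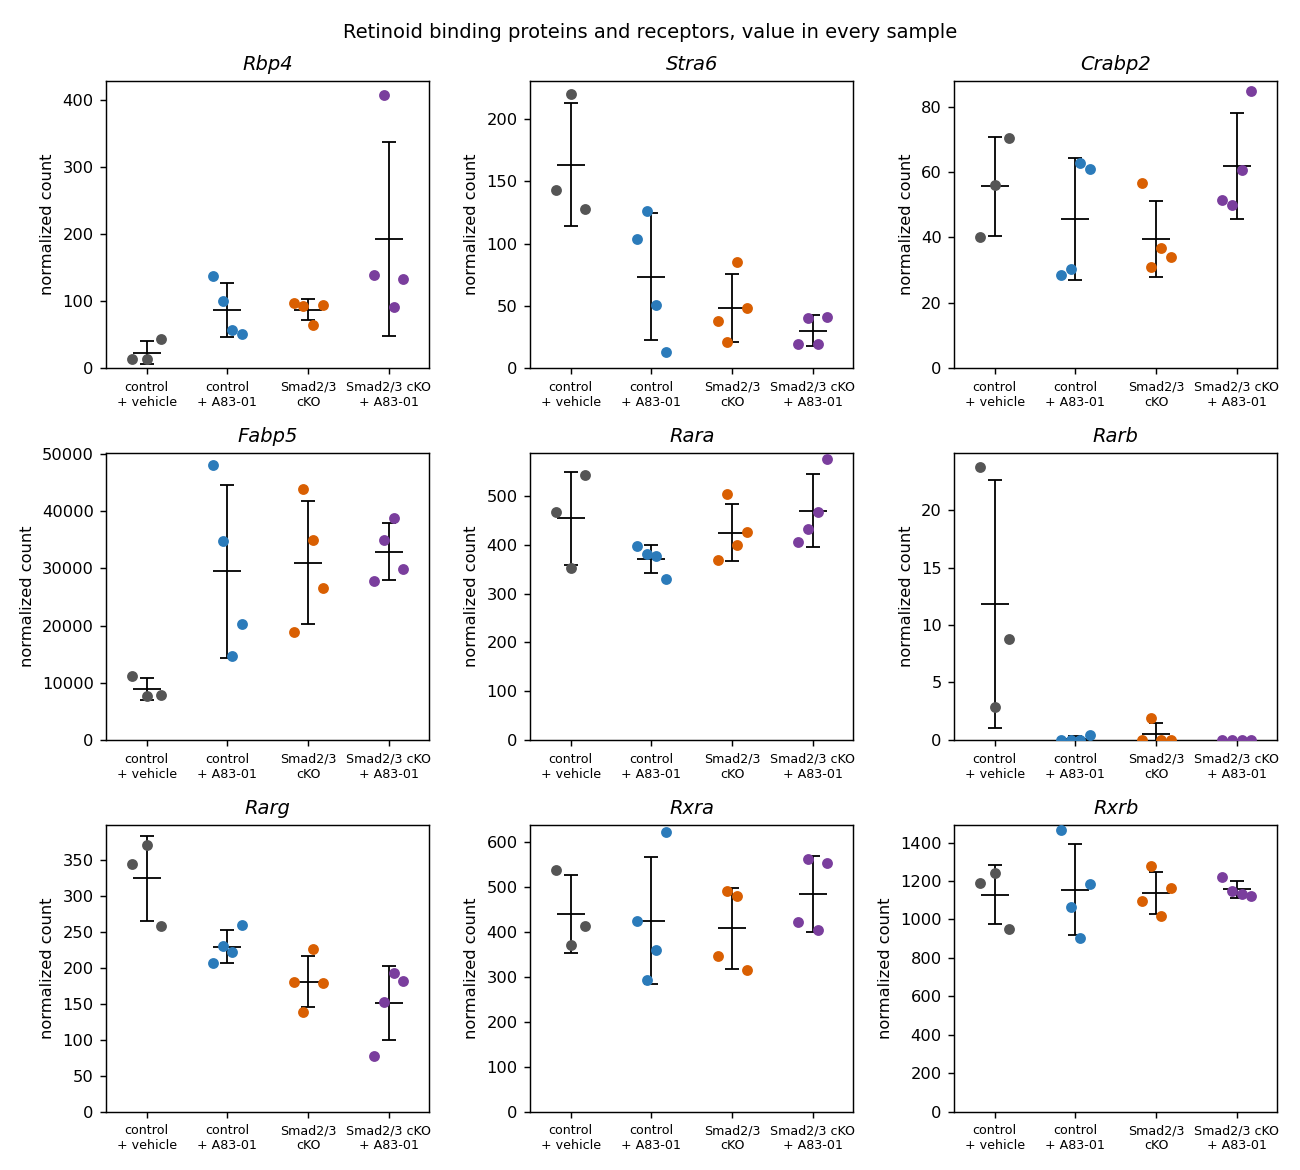
Normalized count of each of the 9 genes (y axis, linear, starting at 0) in the 4 groups (x axis). Each point is 1 sample, and the bars are the mean ± SD of 3 or 4 samples. *Rbp4* and *Fabp5* are lowest in control + vehicle, whereas *Stra6* and *Rarb* are highest there, as is the mean of *Rarg*, and the *Rxrb* means of the 4 groups lie between 1128 and 1156.

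By the background of all genes, 1.19% of 13009 genes tested passed as higher and 1.08% as lower in control + A83-01 against control + vehicle, 4.08% and 3.30% of 13149 genes in *Smad2/3* cKO, and 6.10% and 5.64% of 13097 genes in *Smad2/3* cKO + A83-01. Of the 8 genes tested here, 0 passed in the first comparison, 1 as higher in the second, and 2 as higher and 1 as lower in the third. The samples of *Rbp4*, *Stra6* and *Fabp5* did not overlap between control + A83-01 and control + vehicle, 3 of the 8, where 21.7% of all genes did not overlap. Adding *Rarg*, 4 of the 8 did not overlap with control + vehicle in *Smad2/3* cKO, against 30.8% of all genes, and 4 of the 8 in *Smad2/3* cKO + A83-01, against 33.0%. When every sample was scaled to the same sum, the median log2 fold change of all genes shifted from −0.02 to −0.12, from 0.00241 to −0.09 and from −0.01 to −0.16 in these 3 comparisons, and the genes passing as higher and lower went from 536 and 434 to 440 and 538 in *Smad2/3* cKO and from 799 and 739 to 632 and 979 in *Smad2/3* cKO + A83-01. The calls of the 9 genes were the same under that scaling.

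*Rbp4* encodes the retinol carrier of plasma and lies on chromosome 19 at chr19:38116629-38125281 on the minus strand (GRCm38, GENCODE M21; the authors aligned to GRCm39, so positions here serve to identify the gene). Normalized counts of *Rbp4* were 13.2, 13.5 and 43.1 in control + vehicle and 138, 101, 57.4 and 51.6 in control + A83-01. In *Smad2/3* cKO they were 96.7, 93.5, 64.4 and 94.6, and in *Smad2/3* cKO + A83-01 139, 409, 91.5 and 134. Every sample of the 3 other groups lay above all control + vehicle samples, and control + vehicle replicate 3 was the highest of its group. The log2 fold change against control + vehicle was 1.96 (SE 0.56, adjusted p = 0.0721, limma) with A83-01, 2.06 (SE 0.48, adjusted p = 0.0183) in *Smad2/3* cKO, and 2.97 (SE 0.59, adjusted p = 0.00618) in *Smad2/3* cKO + A83-01, where alone it passed.

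The *Rbp4* call in *Smad2/3* cKO + A83-01 was sensitive to single samples. It was lost without control + vehicle replicate 1 (adjusted p = 0.0288, limma), control + vehicle replicate 2 (0.0293), *Smad2/3* cKO + A83-01 replicate 1 (0.0145) or replicate 4 (0.0168). The call was also lost with no filter on low values (0.0189) and with a variance prior that did not follow the mean level (0.0156). Without control + vehicle replicate 3, *Rbp4* also passed in *Smad2/3* cKO (log2 fold change 2.61, adjusted p = 0.00586). Without *Smad2/3* cKO replicate 2, the sample with macrophage transcripts, it was 2.03 there (adjusted p = 0.0440). The order of the group means was control + vehicle (23.3 ± 17.2, SD, n = 3), control + A83-01 (87.0 ± 40.6, n = 4), *Smad2/3* cKO (87.3 ± 15.3, n = 4) and, highest, *Smad2/3* cKO + A83-01 (193 ± 145, n = 4). Without replicate 2 of the last group, its highest sample, that mean was 121 ± 26.0 (n = 3) and *Rbp4* still passed there (log2 fold change 2.53, adjusted p = 0.00908). Of the neighbours in that order, only control + vehicle and control + A83-01 were free of overlap.

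*Stra6*, the membrane receptor that takes up retinol from RBP4, lies at chr9:58063788-58153996 on the plus strand (GRCm38). Control + vehicle samples held 143, 220 and 128 normalized counts of *Stra6*, and control + A83-01 samples 103, 126, 50.6 and 13.1. Values were 37.6, 20.7, 85.1 and 48.6 in *Smad2/3* cKO and 19.3, 40.5, 19.4 and 41.2 in *Smad2/3* cKO + A83-01. No sample outside control + vehicle reached the lowest control value, which control + A83-01 replicate 2 came close to. The log2 fold changes of *Stra6* were of opposite sign to those of *Rbp4*, at −1.52 (SE 0.71, adjusted p = 0.252, limma) with A83-01, −1.88 (SE 0.48, adjusted p = 0.0258; without replicate 2, −1.54 and 0.0397) in *Smad2/3* cKO and −2.45 (SE 0.42, adjusted p = 0.00316) in *Smad2/3* cKO + A83-01, where alone it passed. That call was lost without control + vehicle replicate 1 (adjusted p = 0.0135) or replicate 2 (0.0209), and when all 4 groups shared 1 estimate of the spread (0.0139). The group means in this order, starting from control + vehicle, were 163 ± 49.7, 73.4 ± 51.2, 48.0 ± 27.3 and 30.1 ± 12.4 normalized counts (SD), and the last 3 groups overlapped with their neighbours.

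*Fabp5*, the fatty acid binding protein that also carries retinoic acid, lies at chr3:10012548-10016607 on the plus strand (GRCm38). Per kb of transcript it had the highest level of the 9 genes in every group, averaging 8997 in control + vehicle where the next, *Rxrb*, averaged 444. Pseudogene copies of *Fabp5* exist in the mouse genome, so the assignment of some of its reads is uncertain. Normalized counts of *Fabp5* were 11155, 7597 and 7888 in control + vehicle and 48120, 34792, 14593 and 20287 in control + A83-01. They were 18793, 43838, 34936 and 26477 in *Smad2/3* cKO and 27808, 34919, 38844 and 29939 in *Smad2/3* cKO + A83-01. All samples of the 3 other groups lay above the highest control + vehicle sample, and the group means of those 3 were close, at 29448 ± 15075, 31011 ± 10798 and 32878 ± 4970 (SD, n = 4 each) against 8880 ± 1975 (n = 3).

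The log2 fold change of *Fabp5* was 1.60 (SE 0.38, adjusted p = 0.0397, limma) with A83-01, 1.76 (SE 0.28, adjusted p = 0.00404) in *Smad2/3* cKO and 1.90 (SE 0.19, adjusted p = 0.000175) in *Smad2/3* cKO + A83-01, and it passed in the last 2. In *Smad2/3* cKO + A83-01 the call held without any single sample (highest adjusted p = 0.00161). In *Smad2/3* cKO it was lost without control + vehicle replicate 1 (adjusted p = 0.0119), replicate 2 (0.0222) or replicate 3 (0.0137) and without *Smad2/3* cKO replicate 4 (0.0110). The highest *Fabp5* value of *Smad2/3* cKO was that of replicate 2, the sample with macrophage transcripts, and without it *Fabp5* still passed, with a log2 fold change of 1.57 (SE 0.26, adjusted p = 0.00741). Of the 5 leukocyte markers, all 5 were tested in *Smad2/3* cKO, where *Ptprc* passed as higher, and 4 in *Smad2/3* cKO + A83-01, where *Ptprc* and *Cd68* passed as higher and *Lyz2* as lower. *Ptprc* was at 12.5 to 38.6 normalized counts in control + vehicle and at 119 to 514 in these 2 groups. *Lyz2* was at 41.2 to 70.8 in control + vehicle and at 0 to 8.73 in *Smad2/3* cKO + A83-01, and the macrophage marker *Adgre1* there at 0 to 1.08. The part of such cells in the *Fabp5* values was not tested.

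*Crabp2*, the cellular retinoic acid binding protein that serves the RARs, lies at chr3:87948666-87953376 on the plus strand (GRCm38). Its normalized counts were 40.2, 56.0 and 70.5 in control + vehicle and 28.6, 30.4, 62.8 and 60.9 once A83-01 was added. They were 56.7, 30.9, 36.9 and 34.0 in *Smad2/3* cKO and 51.5, 50, 60.7 and 84.9 in *Smad2/3* cKO + A83-01. All groups overlapped. Against control + vehicle the log2 fold change had a 95% interval from −1.36 to 0.69 with A83-01, from −1.37 to 0.41 in *Smad2/3* cKO and from −0.67 to 0.98 in *Smad2/3* cKO + A83-01, so changes of any size within these intervals remain possible. Per kb of transcript, the level of *Fabp5* over that of *Crabp2* averaged 165 for control + vehicle (range 105 to 262) and 800 for control + A83-01 (219 to 1587). For *Smad2/3* cKO the ratio averaged 820 (313 to 1338; without replicate 2, 647 and at most 893), and with A83-01 added 526 (333 to 659). Only the range of control + A83-01 overlapped that of control + vehicle.

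**Figure D2:**
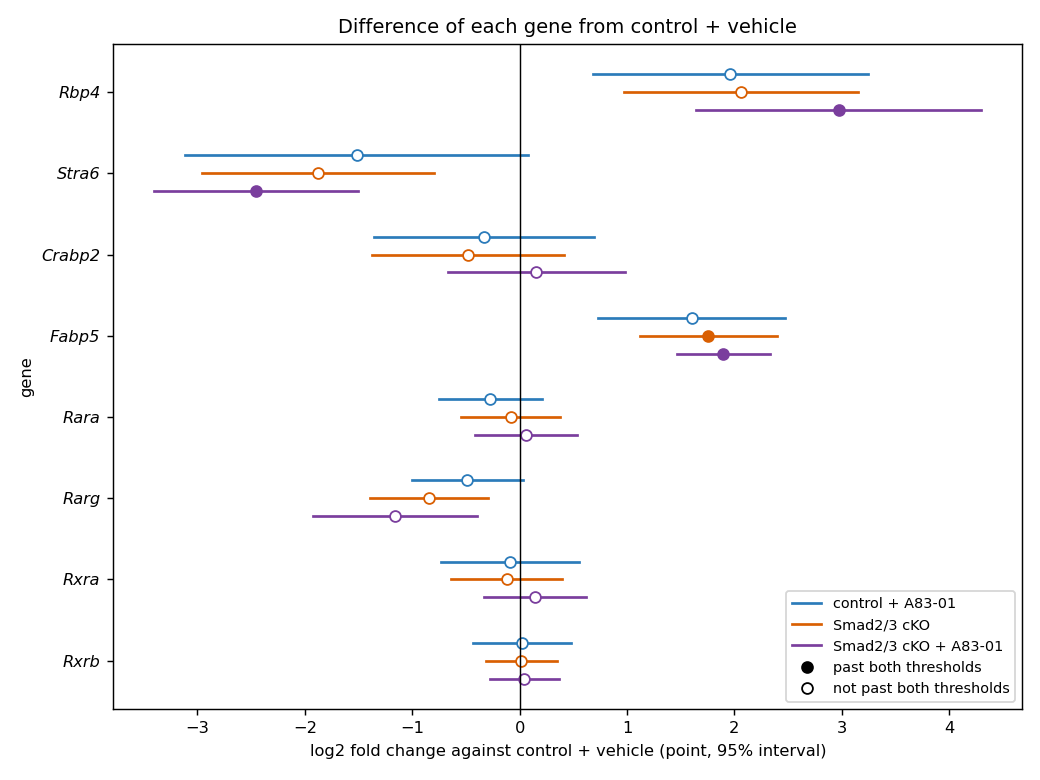
Log2 fold change against control + vehicle (x axis, point with its 95% interval) of the 8 genes tested (y axis) in control + A83-01, *Smad2/3* cKO and *Smad2/3* cKO + A83-01. Filled points passed both thresholds: *Fabp5* in *Smad2/3* cKO and *Smad2/3* cKO + A83-01, and *Rbp4* and *Stra6* in *Smad2/3* cKO + A83-01. The intervals of *Crabp2*, *Rara*, *Rxra* and *Rxrb* include 0 throughout.

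Control organoids could be followed within pairs, since replicates 1, 2 and 3 of control + vehicle carry the same description numbers as replicates 1, 2 and 3 of control + A83-01. The number of replicate 1 also labels a *Smad2/3* cKO sample, so a shared number does not establish a shared mouse. With A83-01 *Rbp4* was higher in 3 of 3 pairs, by 10.5-fold, 7.49-fold and 1.33-fold. *Fabp5* was higher in 3 of 3 as well, by 4.31-fold, 4.58-fold and 1.85-fold. *Stra6*, *Rarg*, *Rarb*, *Crabp2* and *Rxra* were lower in 3 of 3 pairs, but *Crabp2* by 0.17 to 0.86 and *Rxra* by 0.20 to 0.34 on the log2 scale. With the pair as a block, none of the 8 genes passed: *Fabp5* came closest, at a log2 fold change of 1.73 (SE 0.26, adjusted p = 0.0101, limma).

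**Figure D3:**
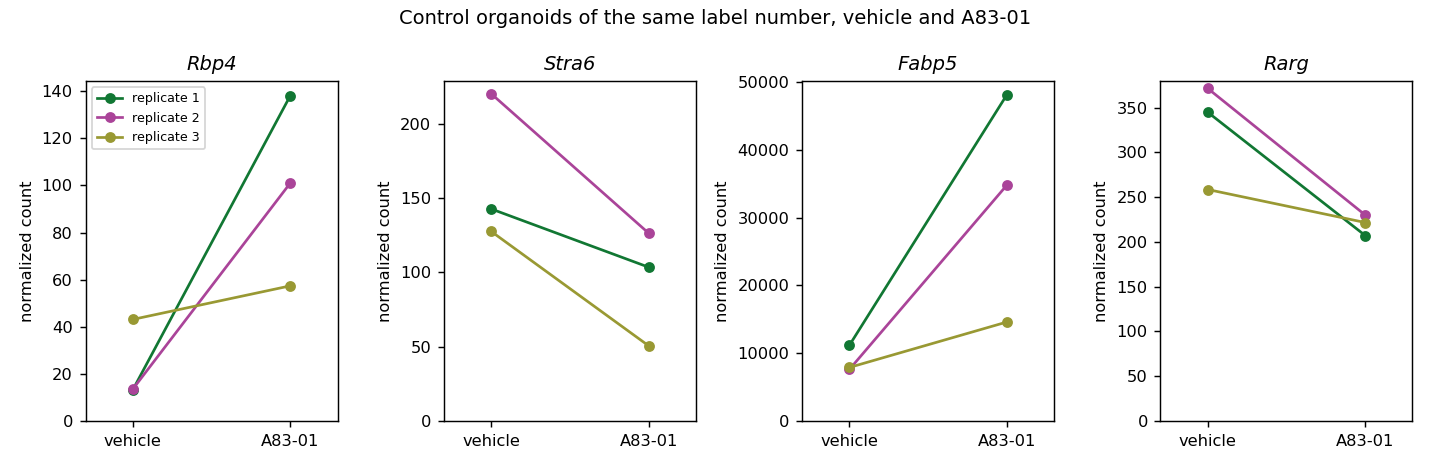
Normalized counts (y axis, linear, starting at 0) of *Rbp4*, *Stra6*, *Fabp5* and *Rarg* in the 3 pairs of control organoids that share a label number, with vehicle and with A83-01 (x axis). Each line joins 1 pair. All 3 lines rise for *Rbp4* and *Fabp5* and fall for *Stra6* and *Rarg*, and replicate 3 changes least for *Rbp4*, *Fabp5* and *Rarg*.

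The control + A83-01 samples also separated by description number, which falls in a lower range for replicates 1 and 2 than for replicates 3 and 4. Replicates 1 and 2 had higher *Rbp4* (138 and 101) than replicates 3 and 4 (57.4 and 51.6), higher *Fabp5* (48120 and 34792 against 14593 and 20287) and higher *Stra6* (103 and 126 against 50.6 and 13.1), but lower *Crabp2* (28.6 and 30.4 against 62.8 and 60.9). What the numbers stand for is not given in the labels. Within either number range, *Rbp4* and *Fabp5* were higher and *Stra6* lower with A83-01 than in the vehicle samples of that range, of which the second holds only 1. With the number range as a covariate *Fabp5* passed in this comparison (log2 fold change 1.74, SE 0.28, adjusted p = 0.00737, limma).

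Among the RARs, the ligand-bound activators of retinoic acid target genes, *Rara* lies at chr11:98927818-98974942, *Rarb* at chr14:16430839-16819156 and *Rarg* at chr15:102234938-102257517 (GRCm38). *Rarb*, itself a known target of retinoic acid, was at 23.8, 2.89 and 8.77 normalized counts in control + vehicle. It was listed at 0, 0, 0 and 0.428 in control + A83-01, at 0, 1.93, 0 and 0 in *Smad2/3* cKO, where replicate 2 held the value above 0, and at 0 in all 4 *Smad2/3* cKO + A83-01 samples. All 12 samples of those groups lay below the lowest control + vehicle sample, at levels of a few reads or none. *Rarb* was too low for the main test; with no filter on low values its log2 fold change was −3.17 (adjusted p = 0.0383, limma), −2.91 (0.0382) and −3.29 (0.0113) in control + A83-01, *Smad2/3* cKO and *Smad2/3* cKO + A83-01, which did not pass at 0.01.

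RARs bind direct repeats of AGGTCA-like units, and the start regions of 2 well-known retinoic acid targets, *Rarb* and *Cyp26a1*, the enzyme that clears retinoic acid, are shown because their values lay on opposite sides of control + vehicle in the organoids. Promoters of RefSeq genes (250 bases before to 50 after the start, GRCm38.p6) were searched on both strands for 2 units, each AGGTCA or that word starting with G (GGGTCA), with T in place of its middle G (AGTTCA) or with both changes (GGTTCA), spaced by 1, 2 or 5 bases. Of 32851 promoters 0.0974% held the spacing of 5, 0.222% that of 1 and 0.268% that of 2. Each line below gives 60 bases on the strand of the gene, ending 11 bases before the RefSeq start, with the repeat units in capitals. *Rarb* is at chr14:16575487-16575546 on the minus strand and *Cyp26a1* at chr19:37697738-37697797 on the plus strand, where the repeat reads in the opposite direction.
Rarb: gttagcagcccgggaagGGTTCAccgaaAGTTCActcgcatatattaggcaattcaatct
Cyp26a1: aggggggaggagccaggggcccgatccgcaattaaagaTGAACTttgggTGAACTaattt
No such repeat lay in the windows of *Rbp4*, *Stra6*, *Rara*, *Rarg*, *Rxra* or *Rxrb*, which says only that these letters are absent there. *Crabp2* and *Fabp5* have no window in that table.

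*Cyp26a1* was lowest in control + vehicle, where *Rarb* was highest. It was at 23.6, 8.50 and 7.60 normalized counts in control + vehicle and 468, 232, 334 and 284 with A83-01. It was at 132, 430, 227 and 412 in *Smad2/3* cKO and 786, 250, 721 and 581 in *Smad2/3* cKO + A83-01. All samples of these 3 groups lay above the control + vehicle samples. Its log2 fold change against control + vehicle was 4.66 (SE 0.46, adjusted p = 0.00105, limma), 4.43 (SE 0.54, adjusted p = 0.00124) and 5.41 (SE 0.50, adjusted p = 0.000117), and it passed in each. With a pseudocount of 10 these were 3.89, 3.66 and 4.62, and it passed again.

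*Rarg*, the RAR best known from epithelia, was at 345, 371.6 and 259 normalized counts in control + vehicle and at 207, 230, 222 and 260 in control + A83-01. *Rarg* was at 181, 138, 226 and 179 in *Smad2/3* cKO, and in *Smad2/3* cKO + A83-01 at 77.7, 152, 193 and 182. Control + vehicle replicate 3 lay just below control + A83-01 replicate 4, while every *Smad2/3* cKO sample, with or without A83-01, lay below all control + vehicle samples. The log2 fold change against control + vehicle was −0.49 (SE 0.23, adjusted p = 0.253, limma), −0.85 (SE 0.24, adjusted p = 0.0407) and −1.16 (SE 0.34, adjusted p = 0.0353) in the same order, and without *Smad2/3* cKO replicate 2 the second was −0.73 (adjusted p = 0.0821). *Rarg* therefore did not pass at 0.01, and passed in *Smad2/3* cKO + A83-01 when all 4 groups shared 1 estimate of the spread (adjusted p = 0.00929).

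*Rara*, the broadly expressed RAR, did not pass in any comparison. Its normalized counts ran from 353 to 544 (control + vehicle), 330 to 398 (plus A83-01), 370 to 505 (cKO) and 405 to 576 (cKO plus A83-01). The 95% interval of its log2 fold change against control + vehicle was −0.75 to 0.21, −0.54 to 0.38 and −0.42 to 0.53 in turn. Changes of *Rara* within these intervals remain possible.

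Compared per kb of transcript, *Rara* held 54.8% ± 9.4 (SD, n = 3) of the summed RAR level under vehicle and 59.4% ± 4.3 (n = 4) under A83-01 in control organoids. In *Smad2/3* cKO organoids the *Rara* share was 67.9% ± 6.4 (n = 4; without replicate 2, 64.9% ± 3.4, n = 3) under vehicle and 74.3% ± 5.9 (n = 4) under A83-01. In the same order *Rarg* held 43.7%, 40.6%, 32.1% and 25.7%, and *Rarb* 1.48%, 0.0185%, 0.0780% and 0%. The lowest *Rara* share in *Smad2/3* cKO + A83-01 (68.6%) was above the highest in control + vehicle (64.8%) and in control + A83-01 (63.5%), whereas control + vehicle overlapped with both control + A83-01 and *Smad2/3* cKO. These shares are descriptions and were not tested. They depend on the transcript length used: in control + vehicle *Rara* averaged 145 per kb by the median length, 134 by the longest and 191 by the shortest.

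**Figure D4:**
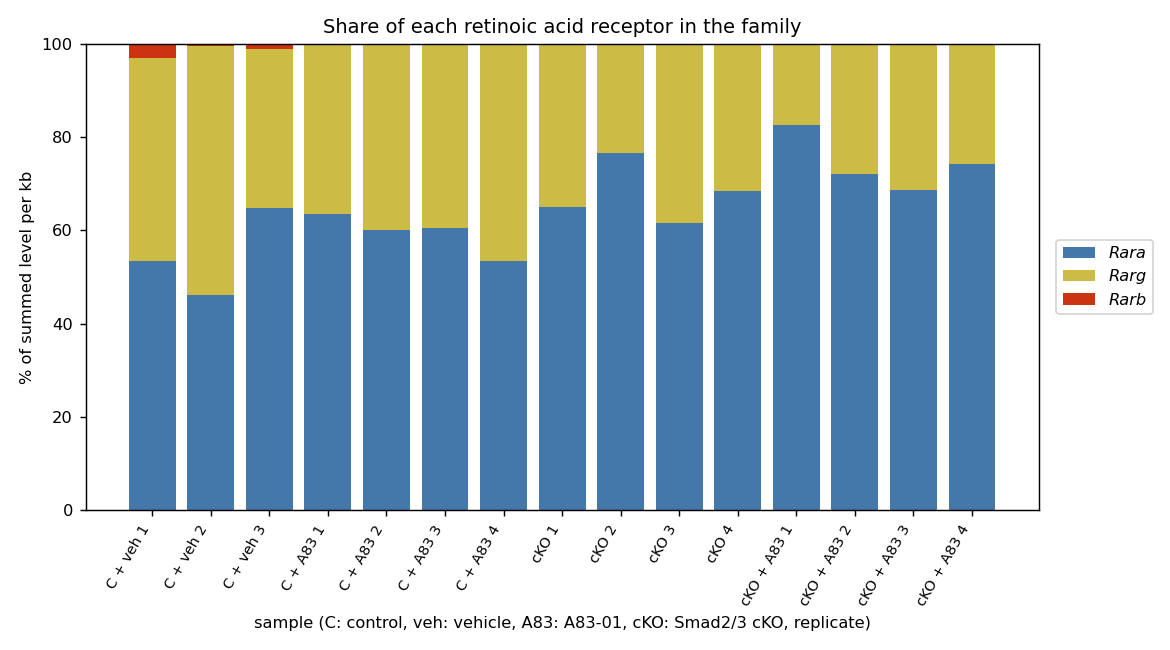
Share of *Rara*, *Rarg* and *Rarb* (stacked, y axis, percent of the summed level per kb of transcript) in each of the 15 samples (x axis). *Rara* makes up 46.1% to 64.8% in control + vehicle and 68.6% to 82.5% in *Smad2/3* cKO + A83-01, and *Rarb* 0.403% to 2.91% in control + vehicle and at most 0.312% elsewhere.

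The RXRs, common partners of the RARs, did not pass in any comparison. *Rxra* lies at chr2:27676440-27762957 and *Rxrb* at chr17:34031812-34038399 (GRCm38). *Rxrb* averaged 1128 ± 154, 1154 ± 237, 1138 ± 109 and 1156 ± 45.8 normalized counts (SD, n = 3, 4, 4 and 4), taking the groups in the order in which they were introduced. Its log2 fold change against control + vehicle had 95% intervals of −0.43 to 0.48, −0.32 to 0.35 and −0.28 to 0.37, the narrowest of the 8 genes tested. *Rxra* averaged 441 ± 87.1, 425 ± 142, 408 ± 90.4 and 486 ± 84.6, with intervals of −0.73 to 0.55, −0.63 to 0.40 and −0.33 to 0.62. Per kb of transcript *Rxrb* held 72.4%, 73.7%, 74.2% and 71.0% of the summed level of both. These percentages depend on the transcript length used, since coding transcripts of *Rxra* run from 1952 to 4905 bases. In control + vehicle *Rxra* averaged 169 per kb by the median length, but 89.8 by the longest and 226 by the shortest. *Rxrg* and *Crabp1* were not analysed here. *Stra6l*, a relative of *Stra6*, did not pass (log2 fold change 0.91, 1.25 and 1.53 against control + vehicle, adjusted p = 0.188, 0.136 and 0.0498, limma).

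Among the 3 groups other than control + vehicle, no gene of the 9 passed. For *Smad2/3* cKO + A83-01 against *Smad2/3* cKO, 0% of 12998 genes passed with limma, and at an unadjusted p below 0.05 there were 554 genes and 0 of the 8. That fit took the samples as unpaired. *Smad2/3* cKO replicate 2 and *Smad2/3* cKO + A83-01 replicate 1 share a description number. Their departures from the group means correlated (r = 0.355). Those of *Smad2/3* cKO replicates 1, 3 and 4 with replicates 2, 3 and 4 under A83-01 did so too (r = 0.394, 0.374 and 0.375), without shared numbers. A fit with these samples as pairs was not run. For *Smad2/3* cKO against control + A83-01, 0% of 12980 genes passed with limma, with 826 genes and 0 of the 8 at an unadjusted p below 0.05. For *Smad2/3* cKO + A83-01 against control + A83-01, 0.0232% of 12915 genes passed and 0 of the 8, of which 1, *Rarg*, had an unadjusted p below 0.05 (log2 fold change −0.68, SE 0.30, adjusted p = 0.524, limma). All *Smad2/3* cKO + A83-01 samples have description numbers in the lower range, whereas control + A83-01 holds both ranges. With the number range as a covariate, 56 genes passed as higher and 16 as lower in this comparison, and again 0 of the 8. In that comparison the samples of *Rara* lay above and those of *Rarg* below, without overlap, 2 of the 8 where 6.12% of all genes did not overlap. None of the 8 was free of overlap in the other 2, against 2.90% and 3.45% of all genes. In control + A83-01 against control + vehicle, where none of the 8 passed with limma, *Rbp4* and *Fabp5* had an unadjusted p below 0.05, as had 2882 of the 13009 genes.

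Whether A83-01 acted differently in the 2 genotypes was tested as an interaction over all 15 samples, with the log2 change with A83-01 in control organoids subtracted from that in *Smad2/3* cKO organoids. No pairing of samples entered this fit. Of all 13066 genes 0.551% passed and of the 8 none did with limma, 1 of them at an unadjusted p below 0.05. That gene was *Fabp5*, which changed by 1.60 with A83-01 in control organoids, and the difference was −1.46 (SE 0.48, adjusted p = 0.161). For *Rbp4* the difference was −1.06 (SE 0.72, adjusted p = 0.574) and for *Stra6* 0.94 (SE 0.90, adjusted p = 0.716).

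Several enzymes that make, store or clear retinoic acid passed in each comparison with control + vehicle. Of 28 enzymes listed, 5 of 21 tested passed as higher and 0 as lower in control + A83-01, 7 of 22 as higher and 1 as lower in *Smad2/3* cKO, and 8 of 21 as higher and 1 as lower in *Smad2/3* cKO + A83-01. The median log2 fold change of the enzymes tested was 0.44, 0.38 and 0.43, against −0.02, 0.00241 and −0.01 over all genes. *Rdh12*, a retinal reductase, was at 20.9 to 71.0 normalized counts in control + vehicle and at 893 to 10627 elsewhere, rising by 5.81, 6.27 and 7.10 on the log2 scale (limma, adjusted p = 0.00389, 0.000332 and 1.82e-05). *Aldh1a2*, which makes retinoic acid from retinal, rose by 3.94, 3.61 and 4.12 (adjusted p = 0.000311, 0.00157 and 0.000308), and *Lrat*, which esterifies retinol for storage, by 3.23, 3.52 and 3.90 (adjusted p = 0.0014, 0.000245 and 2.59e-05). *Aldh1a1* and *Aldh1a3*, which also make retinoic acid from retinal, did not pass in any of these comparisons. *Aldh1a3* was at 157.5 to 562 normalized counts in control + vehicle. In the other groups it was lower without overlap, at 46.5 to 142, 16.1 to 96.7 and 20.4 to 142. *Aldh1a1* averaged 697.9 in control + vehicle and 340.5, 207.4 and 359.4 in the other groups, with overlap.

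*Rdh10*, which oxidizes retinol to retinal, was the exception among the enzymes called. It was at 18882 to 19939 normalized counts in control + vehicle and at 2574 to 8774 in the other groups, and its log2 fold change was −2.09 (SE 0.41, adjusted p = 0.0193, limma) in control + A83-01, −1.83 (SE 0.27, adjusted p = 0.00287) in *Smad2/3* cKO and −2.58 (SE 0.15, adjusted p = 1.19e-05) in *Smad2/3* cKO + A83-01. *Adh1*, an alcohol dehydrogenase that also accepts retinol, was at 0 to 3.47 in control + vehicle and at 139 to 211 in *Smad2/3* cKO (log2 fold change 6.15, SE 0.58, adjusted p = 0.000392), and its log2 fold change in *Smad2/3* cKO + A83-01 was 6.60 (SE 0.88, adjusted p = 0.000821). With control + vehicle so near 0 the size depends on the pseudocount: with 10 or 0.1 in place of 1 it was 3.99 or 7.50 in *Smad2/3* cKO and 4.43 or 7.94 in *Smad2/3* cKO + A83-01, and *Adh1* passed in each. Some of these calls were lost without 1 sample. For *Rdh12* in control + A83-01 this held without control + vehicle replicate 1, 2 or 3 or control + A83-01 replicate 4 (adjusted p = 0.0122 to 0.0217), and for *Rdh10* and *Aldh1a2* in *Smad2/3* cKO without control + vehicle replicate 1 (0.0153 and 0.0103) or replicate 2 (0.0161 and 0.0104). The *Lrat* call in control + A83-01 was lost without the same replicate 1 (0.0106) or 2 (0.0101), whereas those of *Cyp26a1* held without any single sample in all 3 comparisons.

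**Figure D5:**
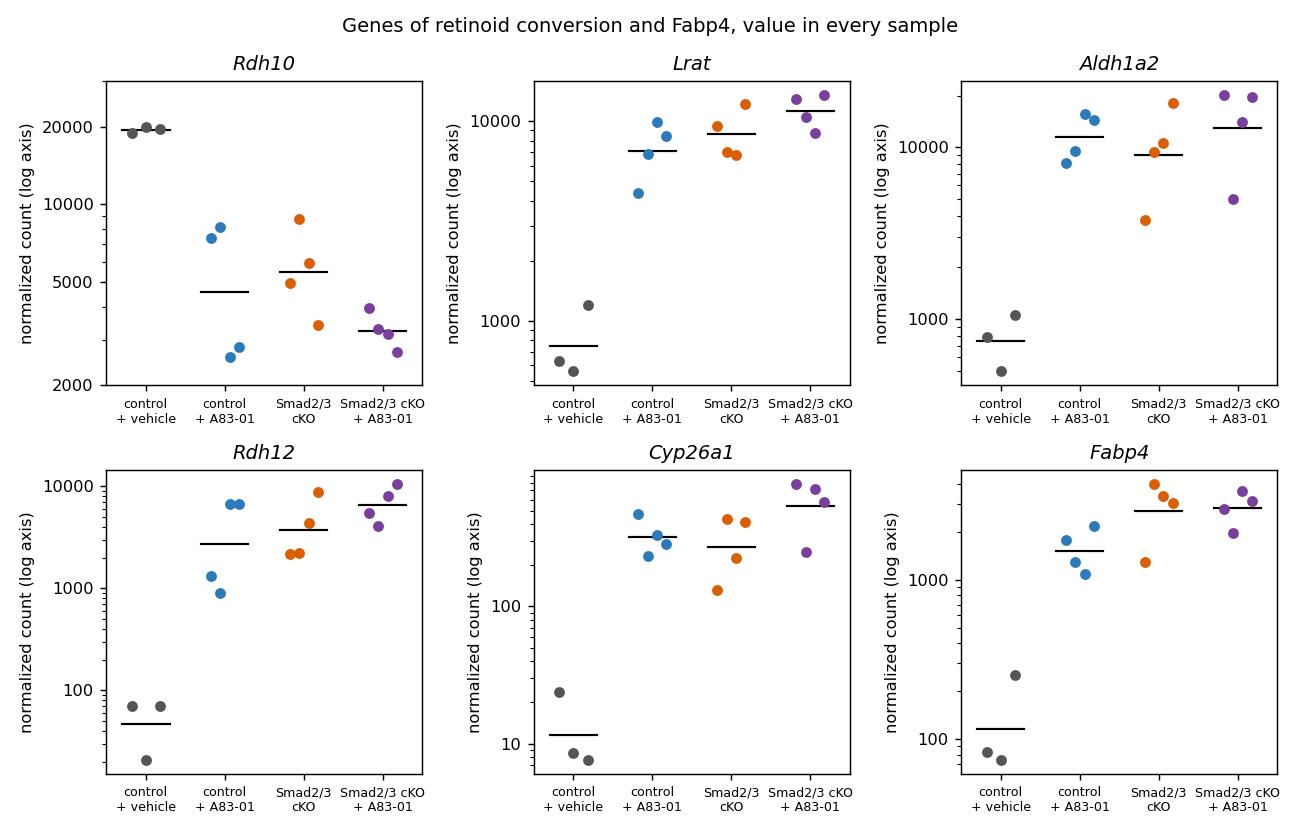
Normalized counts (y axis, log scale) of *Rdh10*, *Lrat*, *Aldh1a2*, *Rdh12*, *Cyp26a1* and *Fabp4* in the 4 groups (x axis). Points are samples, and lines are means of log2(value + 1) turned back into counts. *Rdh10* is highest in control + vehicle and the other 5 genes are lowest there, without overlap with any other group.

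Of 14 genes known to be induced by retinoic acid, a list that shares *Stra6*, *Rarb* and *Crabp2* with the 9 genes and *Cyp26a1* and *Dhrs3* with the enzymes, 6 could be tested. *Cyp26a1* was the one to pass in control + A83-01, *Cyp26a1* and *Dhrs3* rose in *Smad2/3* cKO, and in *Smad2/3* cKO + A83-01 *Cyp26a1*, *Tgm2* and *Dhrs3* rose while *Stra6* fell. *Dhrs3*, which reduces retinal, had log2 fold changes of 0.74 (adjusted p = 0.0987, limma), 1.17 (0.0051) and 1.26 (0.00469). Its *Smad2/3* cKO call was lost without control + vehicle replicate 1 or 2 or *Smad2/3* cKO replicate 2 or 4 (adjusted p = 0.0120 to 0.0258). That in *Smad2/3* cKO + A83-01 was lost without either of the same controls or *Smad2/3* cKO + A83-01 replicate 4 (0.0138 to 0.0229). *Tgm2*, a transglutaminase, was at 33918 to 51077 normalized counts in control + vehicle and 74763 to 122578 in *Smad2/3* cKO + A83-01 (log2 fold change 1.33, SE 0.24, adjusted p = 0.0041), and lost its call without those controls or *Smad2/3* cKO + A83-01 replicate 1, 3 or 4 (0.0116 to 0.0230). The list thus held genes that moved both ways relative to control + vehicle.

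Other lipid carriers and receptor partners were mostly not called. *Fabp4*, the fatty acid binding protein of fat cells and macrophages and a relative of *Fabp5*, was at 74.0 to 251 normalized counts in control + vehicle and at 1085 to 4036 elsewhere. Its log2 fold change was 3.71 (adjusted p = 0.00198, limma), 4.54 (0.000726; without *Smad2/3* cKO replicate 2, 4.34 and 0.00227) and 4.60 (8.28e-05), and of the 9 other fatty acid binding proteins listed only it and *Fabp2* could be tested. *Fabp2* did not pass but lay the other way, at 33.0 to 87.1 normalized counts in control + vehicle. In the other groups *Fabp2* was at 6.42 to 24.2, 0 to 11.8 and 0 to 16.1, without overlap with control + vehicle. In control + A83-01 the *Fabp4* call was lost without control + vehicle replicate 1 (0.0143) or 2 (0.0135). *Fabp4* and *Lrat* were the listed genes with an interaction: the A83-01 change was smaller in *Smad2/3* cKO than in control organoids by 3.65 (adjusted p = 0.00434) and 2.85 (adjusted p = 0.00243) on the log2 scale. The *Lrat* interaction was lost without control + vehicle replicate 2 (0.0110). The *Fabp4* one was lost without replicate 1 or 2 of control + vehicle, 1 or 4 of control + A83-01, and 2 or 4 of *Smad2/3* cKO with or without A83-01 (0.0103 to 0.0187).

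Of 13 receptors that pair with RXRs, 8 or 9 were tested against control + vehicle and *Vdr*, the vitamin D receptor, was the only one to pass, with log2 fold changes of 2.28 (SE 0.31, adjusted p = 0.00203, limma) in *Smad2/3* cKO and 2.41 (SE 0.33, adjusted p = 0.000891) in *Smad2/3* cKO + A83-01. *Vdr* was at 104 to 246 normalized counts in control + vehicle and at 545 to 1084 in those 2 groups. Its *Smad2/3* cKO call was lost without control + vehicle replicate 1 (0.0127) or 2 (0.0102).

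For the genes called at least once, the genes of most similar pattern over the 15 samples were sought by Pearson's r of log2 values among 13066 genes. The 3 nearest to *Rbp4* were *Isyna1* (r = 0.926), *Batf2* (0.907) and *Galm* (0.905). Nearest to *Stra6* were *Mamld1* (r = 0.895), *Gja1* (0.894) and *Ash2l* (0.880), and nearest to *Fabp5* were *Erlec1* (r = 0.935), *Tmbim4* (0.924) and *Mindy1* (0.922). The 15 points share their group structure, so these values describe likeness across groups as much as across samples.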

How the data were processed

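RNA was extracted from organoids, made into cDNA with an ultra-low input kit and sequenced by the authors, who estimated counts per gene with Salmon 1.4.0 and normalized them with DESeq2 1.32.0 (GRCm39), per the labels. The deposited values are a signal in normalized counts. Whether 1 size factor per sample was used could not be established, since only 10.8% to 22.3% of low values per sample fell on 1 spacing. Whole reads were not recoverable, so count models were not used. Authors' comparisons were not used. Symbols were matched for 16697 of 16729 genes. Genes with a mean of at least 10 were fitted on log2(value + 1) with limma 3.58.1 (lmFit, eBayes with trend, R 4.3.3), adjusted over all genes; p-values measure the spread between these samples. On simulated data 66.0%, 68.0% and 65.0% of 200 changed genes were recovered in control + A83-01, *Smad2/3* cKO and *Smad2/3* cKO + A83-01 against control + vehicle. The planted changes were several-fold and larger than most changes of the 9 genes. Recovery of smaller changes was not measured. Same-numbered control samples deviated together (r = 0.423, 0.409 and 0.354), so they were taken as pairs, although control + vehicle replicate 3 was about as close to control + A83-01 replicate 4 (0.347), which has another number. Levels per kb used the median coding transcript length of GENCODE M21. Genes named were the 9, *Smad2*, *Smad3*, up to 3 called genes of largest change per list and comparison, *Rxrg* and *Crabp1*. Some listed genes are not reported here. Beyond this rule, *Rdh10*, *Aldh1a1*, *Aldh1a3*, *Fabp2*, *Stra6l* and the cell type markers were chosen after their values were seen. The genes and lists were chosen with earlier results of these data known. Alternatives were other pseudocounts (0.1, 10), no filter or a minimum of 50, quantile normalization, equal sums, no trend, 1 fit of all groups, the replicate block, the number range as covariate, other thresholds and leaving out each sample.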

Additional observations from a re-analysis of the deposited data

Results flagged for a closer look

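In groups of 4 samples, 26 sets of values of the 9 genes were examined for 1 sample far from the rest, of which chance is expected to mark about 1 in 20, and 4 were marked. *Rbp4* in *Smad2/3* cKO replicate 3 was at 64.4 normalized counts, with the other 3 samples at 93.5 to 96.7. *Rbp4* in *Smad2/3* cKO + A83-01 replicate 2 was at 409, with the others at 91.5 to 139. *Rarb* was at 0.428 in control + A83-01 replicate 4 and at 1.93 in *Smad2/3* cKO replicate 2, with every other sample of either group at 0. With all others at 0 any single value above 0 is marked, so the rate of 1 in 20 does not hold for the *Rarb* marks.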

How the results depend on the processing

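Over 1148 values of the 8 genes under the alternatives tried, 1122 kept their side of the thresholds, 17 fell below, 9 passed in addition and 0 called values changed direction. Most of these values were of genes not called in the main fit, which could not fall below. In *Smad2/3* cKO + A83-01 the call was lost under 7 alternatives and kept under 12 for *Rbp4*, 4 and 15 for *Stra6*, and 0 and 19 for *Fabp5*. In *Smad2/3* cKO the *Fabp5* call was lost under 6 and kept under 13. Of the 8 genes, 1 (*Fabp5*) instead of 0 passed in control + A83-01 against control + vehicle with all 4 groups in 1 fit, with the number range as covariate, and at an adjusted p below 0.05. In *Smad2/3* cKO the 1 gene called became 0 without the trend and 0 with the replicate block, 4 at an adjusted p below 0.05, and 0 to 1 on leaving out single samples. In *Smad2/3* cKO + A83-01 the 3 called became 1 (*Fabp5*) with the replicate block, 2 with no filter and 2 without the trend (*Rbp4* lost in both), and 1 to 3 on leaving out single samples. With all 4 groups in 1 fit *Stra6* was lost and *Rarg* passed. The block changed no other count of these genes. The cause of these changes was not tested. Against *Smad2/3* cKO samples the replicate numbers did not pair the samples (r = 0.077, 0.077 and 0.015 with control + vehicle). Counts over all genes moved more: 295 genes called in control + A83-01 became 49 to 312 without single samples, 970 in *Smad2/3* cKO became 280 to 992 and 211 with the replicate block, and 1538 in *Smad2/3* cKO + A83-01 became 736 to 1580 and 568. Other settings gave 146 to 955, 211 to 2413 and 568 to 2930.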
